A study of Mus musculus with 2 samples.

Results

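Nr4a1 (Nur77), Nr4a2 (Nurr1) and Nr4a3 (Nor1) form the NR4A family of nuclear receptors, and their transcripts were followed across the immune and melanoma cells of B16F10 tumours. The members were taken by gene symbol and were 3 of the 31053 genes of the matrix, where each symbol stood for 1 gene. The Myeloid specific c-Rel KO sample came from mice of genotype LysM-cre x RelloxP/loxP and the WT sample from mice of genotype LysM-cre x Rel+/+, so both carried the Cre, which is driven by the lysozyme promoter of myeloid cells. Each was 1 library of viable CD45+ cells sorted from 5 pooled tumours at 2 weeks after injection of B16F10, a mouse melanoma line, and was read by droplet 3′ sequencing. No age or strain of the mice was given in the labels. Each barcode ended in a library number, 1 or 2, and no label or file tied that number to a genotype. The libraries are therefore called library 1 and library 2, no effect of the Rel deletion was read, and with 1 library of each kind no test was possible.

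NR4A receptors differ from most nuclear receptors in that their ligand pocket is filled by side chains, so their activity follows the amount of protein made. They are immediate early genes, induced quickly by antigen receptor signals, calcium, cyclic AMP and inflammatory stimuli, and they bind DNA as monomers at the NBRE motif, as dimers, or as Nr4a1 or Nr4a2 paired with Rxra. In mice, Nr4a1 is required for Ly6C-low patrolling monocytes, is used as a reporter of antigen receptor signalling in T cells, and acts with Nr4a2 and Nr4a3 in exhausted tumour CD8 T cells and in regulatory T cells.

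In the GENCODE M21 annotation of GRCm38 (mm10), Nr4a1 (ENSMUSG00000023034) lies at chr15:101254269-101274795 on the plus strand, Nr4a2 (ENSMUSG00000026826) at chr2:57106830-57124003 on the minus strand and Nr4a3 (ENSMUSG00000028341) at chr4:48045153-48086447 on the plus strand. The transcript used for each gene has 8 exons. Counts from a 3′ kit come mostly from the last exon, so they do not tell transcripts of different starts apart.

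The promoter windows are shown because the members did not move together across cell types although all are known targets of CREB, the cyclic AMP responsive factor. Each runs 5′ to 3′ on the gene's strand from 250 bases before to 50 bases after the RefSeq start in GRCm38.p6, and capitals mark CGTCA, the short form of the cyclic AMP response element (CRE), or TGACG, the same site on the other strand. The windows are chr15:101266596-101266895 (plus strand) for Nr4a1, which starts inside the annotated gene, chr2:57123954-57124253 (minus strand) for Nr4a2 and chr4:48045055-48045354 (plus strand) for Nr4a3.
Nr4a1: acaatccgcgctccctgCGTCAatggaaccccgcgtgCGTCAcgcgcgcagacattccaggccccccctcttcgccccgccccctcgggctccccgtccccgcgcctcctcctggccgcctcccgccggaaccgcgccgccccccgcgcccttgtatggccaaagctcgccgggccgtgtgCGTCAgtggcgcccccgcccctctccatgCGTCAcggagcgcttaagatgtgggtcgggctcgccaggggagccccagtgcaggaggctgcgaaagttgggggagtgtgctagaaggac
Nr4a2: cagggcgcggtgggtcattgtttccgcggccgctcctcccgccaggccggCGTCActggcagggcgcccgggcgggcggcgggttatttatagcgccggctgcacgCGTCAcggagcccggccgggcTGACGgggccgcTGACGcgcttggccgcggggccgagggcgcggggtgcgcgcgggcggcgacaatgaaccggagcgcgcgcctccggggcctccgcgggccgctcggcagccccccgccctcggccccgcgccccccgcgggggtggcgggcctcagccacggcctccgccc
Nr4a3: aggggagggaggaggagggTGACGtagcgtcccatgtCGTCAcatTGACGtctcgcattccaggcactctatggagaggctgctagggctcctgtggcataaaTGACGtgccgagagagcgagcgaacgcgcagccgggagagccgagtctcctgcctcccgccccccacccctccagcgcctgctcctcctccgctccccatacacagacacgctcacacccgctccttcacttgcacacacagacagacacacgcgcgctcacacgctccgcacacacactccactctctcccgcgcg
Each window held 4 short CRE sites, with no overlap between them. At least 1 was present in 20.8% and at least 4 in 0.231% of the 32851 windows of the table, searched on both strands. The windows had a G and C content of 72.3% (Nr4a1), 81.7% (Nr4a2) and 64.7% (Nr4a3), and the site itself holds a CG. All 4 sites of Nr4a1 read on the plus strand, at positions from -233 to -40, whereas Nr4a2 had sites on both strands between -200 and -111 and Nr4a3 between -231 and -147. None of the windows held the full palindromic CRE TGACGTCA, found in 1.79% of all windows, or the NBRE AAAGGTCA, found in 1.51%, on either strand. These are matches of letters in a short window, and binding was not measured.

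**Figure D1:**
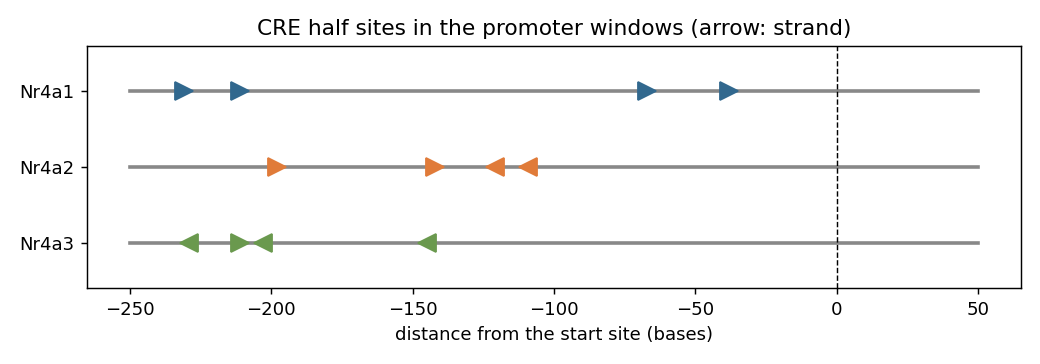
Positions of the short CRE site CGTCA in the promoter windows of Nr4a1, Nr4a2 and Nr4a3, in bases from the RefSeq start (dashed line), with arrows pointing right for the plus strand of the gene and left for the minus strand. Each gene has 4 sites, all upstream of the start and all on the plus strand in Nr4a1.

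Library 1 held 7688 barcodes with 49129318 UMIs (unique transcript counts) and library 2 held 10564 barcodes with 73507228 UMIs. The libraries shared 3609 barcode sequences, and barcodes that repeated a sequence with over 10 times more UMIs in the other library were left out (1991 and 1602). Nr4a1 had 1564 and 2139 UMIs, Nr4a2 1404 and 1511, and Nr4a3 1591 and 1864. Barcodes were put into 8 classes by UMIs of marker genes, none of them an Nr4a gene. Library 1 gave 560 monocyte, 514 macrophage, 149 neutrophil, 22 dendritic, 232 CD8 T, 48 regulatory T, 105 NK and 1944 melanoma barcodes, and library 2 gave 546, 724, 110, 23, 161, 9, 18 and 4225 in the same order. Melanoma barcodes were present although the label gives CD45+ cells. Levels are given in CPM, the UMIs of a gene per 1000000 UMIs of the class. The markers set the classes, so their levels are no check of them: C1qb, a complement subunit and a macrophage marker, was at 124 and 88.4 CPM in monocyte barcodes and at 4436 and 3437 CPM in macrophage barcodes. The weak classes were the neutrophil barcodes of library 2, whose 8 markers summed to 29990 CPM against 149737 CPM in library 1, the dendritic barcodes of library 2, of which 18 of 23 had no more than 2 markers, and the 9 regulatory T and 18 NK barcodes of library 2. Values of these classes are given with their UMI counts. All intervals are exact 95% intervals, Poisson for levels, Clopper-Pearson for shares and conditional binomial for ratios, and cover counting error only.

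The members had different leading cell types. Nr4a1 was highest in monocytes in both libraries, and Nr4a2 was high in dendritic and CD8 T barcodes in both. Nr4a3 was highest in dendritic barcodes of library 1 and in NK barcodes of library 2, there on 4 UMIs, and was the member with most UMIs in melanoma barcodes. Levels in CPM compare a gene between classes, and a sum over fewer UMIs has a wider interval.

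Nr4a1 stood at 191 CPM (167 to 218) in monocyte barcodes of library 1 and at 147 CPM (119 to 180) in those of library 2. Neutrophil barcodes followed with 111 CPM (14 UMIs) and 73.2 CPM (21 UMIs), and dendritic barcodes with 79.6 CPM (4 UMIs) and 61.2 CPM (7 UMIs). Only in library 2 was the interval of monocytes apart from that of the next class, neutrophils (45.3 to 112). It still overlapped that of dendritic barcodes there (24.6 to 126). Below these, macrophage barcodes had 47.0 CPM (38.3 to 57.0) and 26.0 CPM (19.5 to 34.1), and CD8 T barcodes 29.2 CPM (18.0 to 44.6) and 28.0 CPM (12.8 to 53.1). Melanoma barcodes had 22.8 CPM and 24.2 CPM. CD8 T levels overlapped those of melanoma barcodes in both libraries, with ratios of CD8 T over melanoma of 1.28 (0.79 to 1.97) and 1.15 (0.53 to 2.20). NK barcodes had 2 Nr4a1 UMIs in library 1 and none in library 2, where a count of 0 allows up to 211 CPM (3 UMIs). Regulatory T barcodes had 5 UMIs (44.7 CPM) in library 1 and none in library 2, where a count of 0 allows up to 188 CPM.

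Nr4a2 stood at 211 CPM (179 to 247) in CD8 T barcodes of library 1 and at 258 CPM (205 to 320) in those of library 2. Dendritic barcodes had 278 CPM (14 UMIs) and 262 CPM (30 UMIs), and NK barcodes 246 CPM (29 UMIs) and 141 CPM (2 UMIs). These 3 classes led in library 1 with overlapping intervals, and the CD8 T interval was apart from that of monocytes, at 83.3 CPM (67.5 to 102). In library 2 monocytes reached 180 CPM (149 to 216), which overlapped the CD8 T interval. Macrophage barcodes had 29.9 CPM and 33.9 CPM and melanoma barcodes 17.8 CPM and 10.3 CPM, the lowest classes in both libraries apart from 1 UMI in neutrophil barcodes of library 1 and 0 in regulatory T barcodes of library 2. CD8 T barcodes were 11.8 times (9.85 to 14.1) and 25.2 times (19.7 to 31.8) above melanoma barcodes for Nr4a2, and 9.28 times (7.87 to 10.9) and 13.2 times (10.7 to 16.0) with classes by nearest profile.

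Nr4a3 stood at 298 CPM (15 UMIs, 167 to 492) in dendritic barcodes of library 1 and at 61.2 CPM (7 UMIs, 24.6 to 126) in those of library 2. Melanoma barcodes had 34.9 CPM (33.0 to 36.9) and 27.2 CPM (25.8 to 28.6). CD8 T barcodes had 29.2 CPM (18.0 to 44.6) and 46.6 CPM (26.1 to 76.9), and the ratio of CD8 T over melanoma lay on different sides of 1 in the libraries, at 0.83 and 1.72. Monocyte barcodes had 21.5 CPM and 18.6 CPM, and macrophage barcodes had the lowest levels of the classes with any UMI, 8.29 CPM (18 UMIs) and 2.95 CPM (6 UMIs). Macrophages were 0.24 times (0.14 to 0.38) and 0.11 times (0.04 to 0.24) the melanoma level, while Nr4a2 was 1.68 times (1.28 to 2.17) and 3.31 times (2.53 to 4.25) higher in macrophages. With classes by nearest profile Nr4a2 was at 1.04 times (0.76 to 1.40) and 1.56 times (1.15 to 2.07), with an interval that held 1 in library 1, and Nr4a3 was at 0.166 and 0.0378 times. NK barcodes had 50.8 CPM (6 UMIs, 18.7 to 111) and 281 CPM (4 UMIs, 76.7 to 720). Classes set by nearest profile, which put 286 and 68 barcodes in NK and 61 and 58 in dendritic, gave Nr4a3 68.6 and 87.8 CPM in NK and 115 and 111 CPM in dendritic barcodes.

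**Figure D2:**
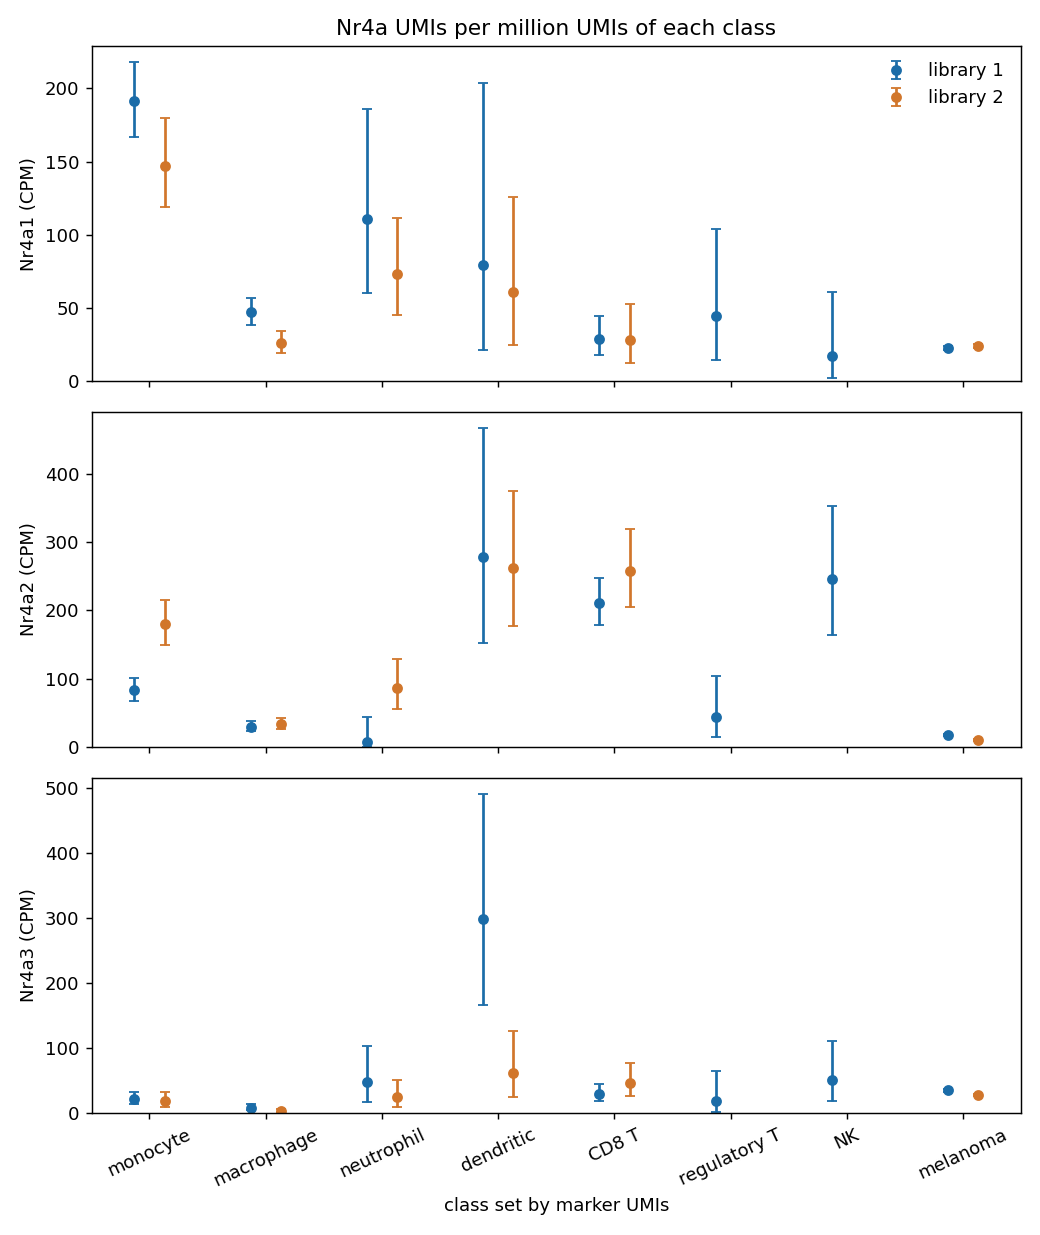
Levels of Nr4a1, Nr4a2 and Nr4a3 in CPM (y axis) for each class (x axis), with library 1 left of library 2, points for the class level and bars for the exact 95% Poisson interval, for classes with at least 20 barcodes in the library. Nr4a1 is at 191 and 147 CPM in monocytes, Nr4a2 at 211 and 258 CPM in CD8 T barcodes, and Nr4a3 at 298 and 61.2 CPM in dendritic barcodes.

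Melanoma RNA was present in every immune class, and its source was not tested. Pigment UMIs (Pmel, Mlana, Dct and Tyrp1) of monocyte, macrophage and CD8 T barcodes were 3.27%, 2.65% and 2.30% of the melanoma level in library 1 and 7.19%, 7.07% and 5.14% in library 2, and those of neutrophil and dendritic barcodes 17.5% and 16.2% in library 2. Removing melanoma RNA in that proportion left Nr4a1 in macrophages at 47.6 and 26.2 CPM and Nr4a2 at 30.3 and 35.7 CPM. Nr4a3 in macrophages of library 2 was at 1.10 CPM after this removal, against 2.95 CPM before it. In melanoma barcodes, which the class rule limits to 1 Ptprc UMI, the immune gene Il1b was at 0.305% and 0.305% of the monocyte level, and the T cell gene Cd3d at 0.184% and 0.137% of the CD8 T level. Nr4a1 in melanoma barcodes was 22.8 and 24.2 CPM against 191 and 147 CPM in monocytes.

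The make-up of the family showed the same contrast within each class. Nr4a2 made up 78.4% (71.9 to 83.9) and 77.6% (68.5 to 85.1) of Nr4a UMIs in CD8 T barcodes, and 78.4% of the 37 Nr4a UMIs of NK barcodes in library 1. Monocytes differed between libraries, with Nr4a1 at 64.6% (59.3 to 69.7) and 42.6% (36.0 to 49.4) and Nr4a2 at 28.1% and 52.0%. Nr4a3 made up 46.3% (44.4 to 48.2) and 44.1% (42.4 to 45.8) of Nr4a UMIs in melanoma barcodes, but 7.25% and 5.38% in monocytes and 9.73% and 4.69% in macrophages. Counts per gene are not corrected for how well each 3′ end is read, so these shares compare classes and not the abundance of 1 member with another.

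**Figure D3:**
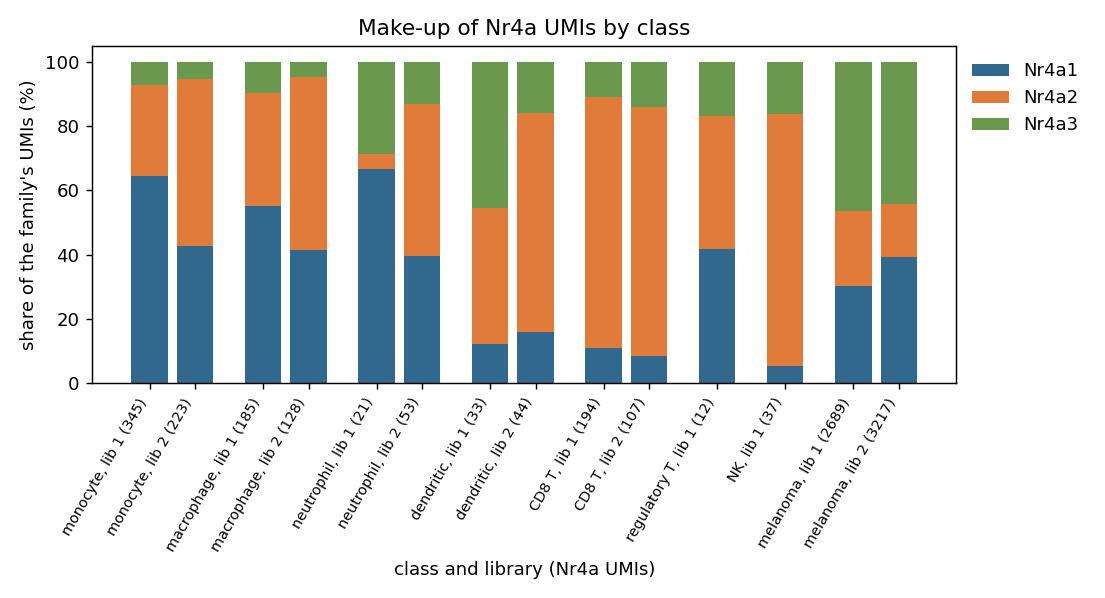
Share of Nr4a1, Nr4a2 and Nr4a3 (stacked, %) in the family's UMIs of each class and library with at least 10 Nr4a UMIs, whose number is given in brackets. CD8 T bars are 78.4% and 77.6% Nr4a2, and melanoma bars 46.3% and 44.1% Nr4a3.

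Levels summed over a class can rest on a few deep barcodes, so shares of barcodes with a UMI were read after thinning each barcode to 1000 UMIs. Barcodes under 1000 UMIs were left out, which took 31 and 234 monocyte, 29 and 49 macrophage, 36 and 33 CD8 T and 19 and 35 melanoma barcodes. Nr4a1 was then seen in 16.4% (13.4 to 19.9) and 13.8% (10.2 to 18.1) of monocytes, 5.98% and 3.41% of macrophages, 2.55% and 3.13% of CD8 T and 2.29% and 2.65% of melanoma barcodes. Nr4a2 was seen in 30 of 196 (10.6% to 21.1%) and 32 of 128 (17.8% to 33.4%) CD8 T barcodes, in 7.94% and 16.7% of monocytes and in 9 of 35 NK barcodes of library 1. In macrophages and melanoma barcodes, the share with Nr4a2 was 1.65% and 3.26%, and 1.87% and 1.19%. Without thinning, melanoma barcodes, with a median of 18135 and 11953 UMIs, gave shares with Nr4a1 of 29.5% and 23.5%, close to the 29.6% and above the 15.8% of monocytes, whose medians were 1854 and 1062 UMIs. Unthinned shares of Nr4a2 in CD8 T barcodes were 33.6% and 34.8%, against 13.9% and 17.2% in monocytes. Melanoma barcodes should lack immune genes, and there Il1b, a cytokine gene seen in neutrophil, monocyte and macrophage barcodes, had unthinned shares of 14.2% and 7.88%.

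Monocytes and macrophages were compared first, since both derive from the lineage in which LysM-cre acts. Nr4a1 was 4.07 times (3.21 to 5.20) and 5.66 times (4.0 to 8.08) higher in monocytes, and Nr4a2 2.78 times (2.01 to 3.87) and 5.31 times (3.91 to 7.26). Nr4a3 was 2.59 times (1.36 to 5.04) and 6.32 times (2.19 to 20.5) higher, on 25 and 12 monocyte UMIs. With classes by nearest profile Nr4a2 was 4.33 and 6.98 times and Nr4a3 4.76 and 35.3 times higher, the last against 2 macrophage UMIs. To be counted as higher, a gene needed a ratio of 2 or more in each library, and it was measured where the classes together held 50 UMIs or more per library. Nr4a1 and Nr4a2 passed, as did 4.74% of the 5438 genes measured, and Nr4a3 had too few UMIs to be counted. The opposite call, at least 2 times higher in macrophages, was met by 7.61% of the genes.

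Of 8 inflammatory genes, 3 were higher in monocytes: Il1b at 8.29 times (geometric mean of the libraries, as for the ratios that follow), Ptgs2, the inducible prostaglandin synthase, at 4.22 times and Osm, the cytokine oncostatin M, at 2.85 times. None of the 8 was higher in macrophages, and the median log2 ratio was 0.95, against -0.09 over all genes. Of the 15 immediate early genes measured, only Btg2, an antiproliferative factor, passed, at 3.08 times, with a list median of 0.31. Ier2 and Dusp2 had ratios of 2.15 and 2.26 but did not reach 2 in each. Egr1, the zinc finger factor most often induced along with Nr4a1, had 245 CPM in monocytes and 576 CPM in macrophages of library 1, and 63.6 CPM and 64.8 CPM in library 2. Fosb and Egr2 also had ratios below 1 in both libraries, at 0.57 and 0.61.

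Of the 12 calcium and cyclic AMP genes measured, Crem, a cyclic AMP responsive repressor, was higher in monocytes at 2.45 times, while the factor Nfatc2 and the calcineurin inhibitor Rcan1 were 3.21 and 3.50 times higher in macrophages. The list median was 0.25. The prostaglandin receptor gene Ptger4 had a ratio of 2.28 without reaching 2 in each. Among 6 partners and corepressors, the heterodimer partner Rxra was 2.38 times higher in macrophages, none was higher in monocytes and the median was -0.05. Rara, a retinoic acid receptor, was 3.13 times higher in monocytes and was the only one of 4 other nuclear receptors to pass. Of the T cell activation and exhaustion list, 5 genes had enough UMIs here, of which Havcr2 was 2.56 times higher in monocytes. That list had a median of 0.10, and the other nuclear receptors 0.16.

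Ly6C-low monocytes, the cells known to need Nr4a1 in mice, express Ace and Treml4. This split was chosen after other values were seen. Nr4a1 stood at 412 CPM (49 UMIs, 305 to 545) in the 66 monocyte barcodes of library 1 with a UMI of either gene, against 166 CPM (143 to 193) in the 494 without. In library 2 it stood at 287 CPM (12 UMIs, 148 to 501) in 38 barcodes, against 138 CPM (110 to 171) in 508. The intervals were apart in library 1 and overlapped in library 2. Ly6c2 was at 269 CPM in the barcodes with Ace or Treml4, against 605 CPM in those without, in library 1, and at 71.7 CPM against 350 CPM in library 2. The monocyte class was itself set by UMIs of Ly6c2, Ccr2, Plac8, Chil3, Vcan and Hp. Cells low in these genes, Ly6C-low monocytes among them, can therefore be missing from it. For Nr4a2 neither direction was shown, as intervals overlapped in both libraries. It was at 58.9 CPM (7 UMIs, 23.7 to 121) with either gene against 86.0 CPM (69.2 to 106) without in library 1. In library 2 it was at 143 CPM (6 UMIs, 52.6 to 312) against 182 CPM (150 to 220). Ace was seen in 8.21% and 3.48% of monocyte barcodes and Treml4 in 5.89% and 4.21%, so a barcode without a UMI of either can still be such a cell.

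In macrophages, Nr4a1 was seen more often in barcodes that also had Il1b. After thinning to 1000 UMIs, 14.8% (9.64 to 21.4) of the 155 macrophage barcodes with an Il1b UMI had Nr4a1 in library 1, against 1.82% (0.67 to 3.92) of the 330 without. In library 2 the shares were 13.3% (6.81 to 22.5) of 83 with Il1b and 2.03% (1.05 to 3.51) of 592 without. The intervals were apart in both libraries. Before thinning, these barcodes had median UMIs of 3379 with Il1b against 3908.5 without in library 1, and 1959 against 2611 in library 2. When macrophages were instead the barcodes nearest to the macrophage profile, the shares were 10.6% against 2.03% and 13.3% against 2.41%. Thinned to 500 UMIs, 6 of 128 barcodes with Il1b in library 1 and 1 of 67 in library 2 had Nr4a1, against 2.07% and 0.913% without, and the intervals overlapped at this depth. Without thinning they were apart in library 1, at 30.7% against 5.63%, and overlapped in library 2, at 13.1% (7.69 to 20.4) against 5.65% (3.94 to 7.80). Nr4a2 went with Il1b in macrophages of library 2, at 13.3% against 1.86%, and was at 2.58% against 1.21% in library 1, where the intervals overlapped. With Egr1 in place of Il1b, the shares of macrophages with Nr4a1 were 7.05% with Egr1 against 5.47% without, and 7.89% against 3.14%, with overlapping intervals in both libraries.

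Monocytes did not repeat this across libraries. In library 1, Nr4a1 was seen in 20.1% (16.1 to 24.6) of monocytes with Il1b against 8.07% (4.37 to 13.4) without, and Nr4a2 in 10.3% against 2.48%, with intervals apart for both. In library 2 the shares were 12.8% against 16.0% for Nr4a1 and 16.5% against 17.0% for Nr4a2. For Nr4a1 with Nr4a2 in monocytes neither direction was shown. In library 1, 19.0% (8.60 to 34.1) of barcodes with Nr4a2 had Nr4a1, against 16.2% (13.1 to 19.8) of those without. In library 2 the shares were 13.5% (5.59 to 25.8) against 13.8% (9.89 to 18.7). Only 8 and 7 barcodes had both, so the intervals are too wide to exclude a difference.

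**Figure D4:**
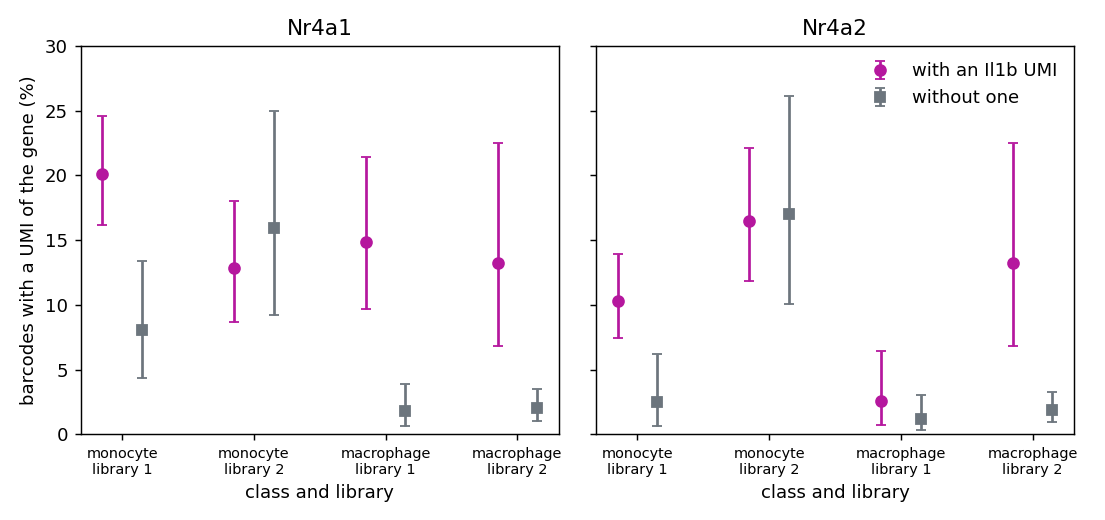
Share of barcodes with a Nr4a1 (left) or Nr4a2 (right) UMI in % (y axis) among monocyte and macrophage barcodes of each library with an Il1b UMI (circles) and without one (squares), after thinning to 1000 UMIs, with exact 95% Clopper-Pearson intervals. In macrophages Nr4a1 is at 14.8% and 13.3% with Il1b, against 1.82% and 2.03% without.

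Neutrophils, short-lived granulocytes that are known to hold little RNA, were read against monocytes. Nr4a1 was 0.58 times (0.31 to 0.99) and 0.50 times (0.29 to 0.80) the monocyte level, and Nr4a2 0.0951 times (0.00238 to 0.543) and 0.48 times (0.30 to 0.75). Nr4a3 was at 47.5 CPM (6 UMIs) and 24.4 CPM (7 UMIs), with ratios of 2.21 and 1.31 whose intervals held 1. With classes by nearest profile Nr4a1 was 0.48 times (0.27 to 0.79) and 0.74 times (0.39 to 1.28) the monocyte level. Nr4a2 had 0 UMIs in library 1, which bounded its ratio at 0.229, and was 0.59 times (0.31 to 1.03) in library 2. Both of these intervals held 1 in library 2. In library 2, 27 of the 110 neutrophil barcodes had 2 markers only and carried 13 of the 25 Nr4a2 UMIs. The 83 barcodes with 3 or more markers had 103 CPM of Nr4a2, against 8.62 CPM in the 139 such barcodes of library 1.

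Dendritic cells prime T cells and turn on Ccr7 as they mature and migrate. Nr4a3, which mouse work links to dendritic cell migration, was 13.9 times (6.81 to 27.4) and 3.29 times (1.10 to 9.06) the monocyte level, and 4.30 times (2.40 to 7.43) and 3.26 times (1.69 to 6.02) with classes by nearest profile. Nr4a2 was 3.34 times (1.76 to 5.89) and 1.46 times (0.94 to 2.19). Nr4a1 was at 0.42 times (0.11 to 1.08) and 0.42 times (0.16 to 0.89), and Nr4a2 of library 2 and Nr4a1 of library 1 had intervals that held 1.

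Splitting dendritic barcodes by Ccr7, one of the markers of the class, was done after other values were seen. The 16 barcodes with Ccr7 in library 1 held 14 of the 15 Nr4a3 UMIs (538 CPM, 294 to 902), against 41.3 CPM in the 6 without. In library 2 the 6 with Ccr7 had 160 CPM (4 UMIs), against 33.5 CPM (3 UMIs) in the 17 without. The profile-based class, with more barcodes, gave 468 CPM (262 to 772) in 18 with Ccr7 against 35.4 CPM (11.5 to 82.5) in 43 without in library 1, and 388 CPM (156 to 799) in 9 against 71.7 CPM (32.8 to 136) in 49 in library 2. These intervals were apart in both libraries. Nr4a1 in the profile-based class had 0 UMIs with Ccr7 in library 1, which allows up to 115 CPM by the interval, against 91.9 CPM without, and 111 CPM (2 UMIs) against 95.6 CPM in library 2. Nr4a2 was split in opposite directions, at 562 CPM with Ccr7 against 339 CPM without in library 1, and 55.4 CPM (1 UMI) against 351 CPM in library 2.

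CD8 T and NK barcodes are the cytotoxic lymphocytes. The Nr4a2 ratio of CD8 T over NK was 0.86 (0.57 to 1.33) in library 1 and 1.83 (0.49 to 15.4) in library 2, so neither direction was shown. None of the members passed the rule of 2 times in both libraries, which 9.19% of the 860 genes measured passed towards CD8 T and 2.79% towards NK. Only Nr4a2 had enough UMIs to be counted. The profile-based NK class of library 2, with 68 barcodes, had 220 CPM of Nr4a2 (10 UMIs, 105 to 404), close to the 234 CPM (178 to 303) of library 1.

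Of the 8 T activation and exhaustion genes measured, 6 were counted as higher in CD8 T barcodes, with 0.5 UMIs added to each count. The list was measured by the same limit on UMIs, so its count and median also lean towards CD8 T barcodes. Pdcd1, which encodes the inhibitory receptor PD-1, had 258 and 102 UMIs there, and Ctla4 and Tnfrsf4, an inhibitory and a costimulatory receptor, had 73 and 55, and 325 and 127. None of these had a UMI in NK barcodes, which held 118054 and 14216 UMIs in all. Against the 3 UMIs that a count of 0 allows, Pdcd1 was at least 14.1-fold and 1.5-fold higher, Tnfrsf4 at least 17.8-fold and 1.87-fold higher and Ctla4 at least 3.99-fold higher in library 1, with no bound above 1 in library 2. The cytokine genes Ifng, Ccl3 and Ccl4 made up the other 3. Ccl3 had plain ratios of 3.93 and 6.32, on 9 and 1 NK UMIs, and Ccl4 of 3.39 and 7.02, on 17 and 1. Ifng had a plain ratio of 3.41 in library 1, on 5 NK UMIs. In library 2, with 0 NK UMIs, it was at least 2.74-fold higher. All 3 were above 2 in both libraries, but in library 2 they rest on 1 or 0 NK UMIs. The list median was a log2 ratio of 2.42, or 1.91 with the bounds, against 0.20 over all genes. Of 5 immediate early genes measured, Dusp2, a phosphatase of MAP kinases, was 3.54 times higher in NK barcodes and none was higher in CD8 T barcodes. The single inflammatory gene, corepressor and other nuclear receptor measured (Nfkbia, Ncor1 and Rora) did not pass. No calcium or cyclic AMP gene and no naive T gene had enough UMIs.

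Within CD8 T barcodes, Nr4a2 was read beside genes of T cell states after thinning to 1000 UMIs. It was seen in 20.0% (10.4 to 33.0) of barcodes with Pdcd1 against 13.5% (8.31 to 20.2) without in library 1, and in 28.9% (15.4 to 45.9) against 23.3% (15.1 to 33.4) in library 2. The direction was the same in both libraries and the intervals overlapped in both. With Havcr2 (TIM-3), a later exhaustion receptor, the direction differed: 0 of 20 against 17.0% in library 1, and 41.2% against 22.5% in library 2. Thinned to 500 UMIs, shares were higher with the receptor gene in both libraries, with overlapping intervals, at 11.8% against 5.05% and 13.8% against 8.33% for Pdcd1 and on 1 and 2 barcodes for Havcr2. Without thinning, the intervals were apart in library 1, at 48.6% (38.9 to 58.4) against 20.3% (13.6 to 28.5) for Pdcd1 and 59.3% (45.7 to 71.9) against 24.9% (18.6 to 32.0) for Havcr2. They overlapped in library 2, at 36.8% against 33.3% and 45.5% against 32.0%. Unthinned barcodes with the receptor gene were deeper, with medians in library 1 of 3154 against 1405 UMIs for Pdcd1 and 4088 against 1615 UMIs for Havcr2. Of the 11 barcodes with Tcf7, a factor of memory-like T cells, in library 1 none had Nr4a2, which allows a share of up to 28.5% by the exact interval, against 16.2% without, and library 2 had no barcode with Tcf7 after thinning.

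Summed Nr4a2 levels were lower in regulatory T than in CD8 T barcodes, on few UMIs. The ratio was 0.21 (0.07 to 0.50) in library 1, on 5 UMIs, and 0 UMIs in library 2 bounded it at 0.91. With classes by nearest profile it was 0.0648 (0.00163 to 0.366) in library 1, on 1 UMI. The bound in library 2 was then 1.75, so its interval held 1. After thinning to 1000 UMIs, 2.63% (0.07 to 13.8) of regulatory T and 15.3% (10.6 to 21.1) of CD8 T barcodes of library 1 had Nr4a2. At 500 UMIs the shares were 6.25% (3 of 48) and 6.03% (14 of 232). The share intervals overlapped at both depths. Nr4a1, used in mice as a reporter of receptor signals in these cells, had 44.7 CPM in regulatory T and 29.2 CPM in CD8 T barcodes of library 1, a ratio of 1.53 (0.45 to 4.18). Nr4a3 had 2 UMIs there. The levels of 9 regulatory T barcodes in library 2 were not detectable at this depth.

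Melanoma barcodes were deep enough to be thinned to 5000 UMIs, a depth added after the data were seen. Nr4a3 was then seen in 16.8% (15.1 to 18.6) and 13.2% (12.2 to 14.3), Nr4a1 in 11.5% and 10.5%, and Nr4a2 in 7.49% and 4.33%. Nr4a1 was seen more often where Nr4a2 was. It was in 23.9% (16.9 to 32.0) of the barcodes with Nr4a2 against 10.5% (9.07 to 12.1) of those without in library 1, and in 17.9% (12.4 to 24.5) against 10.1% (9.18 to 11.1) in library 2. For Nr4a3 this was not shown at 5000 UMIs, as Nr4a1 was in 12.0% of barcodes with Nr4a3 against 11.4% without, and in 13.5% against 10.0%, with overlapping intervals. Without thinning the intervals were apart, at 33.8% (30.4 to 37.2) against 26.7% (24.2 to 29.3) and 31.4% (28.6 to 34.3) against 20.8% (19.4 to 22.3). Unthinned barcodes with Nr4a3 were deeper, with medians of 19470 against 16834 and 13005 against 11586 UMIs. Nr4a2 went with Fos, the AP-1 subunit, at 9.58% (7.97 to 11.4) with Fos against 3.23% (1.95 to 4.99) without and 5.56% (4.59 to 6.66) against 3.03% (2.30 to 3.91). Nr4a1 with Fos was at 12.9% against 8.66% and 12.5% against 8.29%, with intervals apart in library 2 only. Nr4a3 with Fos was at 17.6% against 15.3% and 14.9% against 11.5%, again apart in library 2 only.

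Between the lowest and highest of 3 ranges of pigment content, set after other values were seen, the members went in opposite directions. The lowest range lies below the limit of the melanoma class. The ranges were 25 to 50%, 50 to 75% and over 75% of the 90th percentile of the pigment UMI share, in barcodes with at most 1 Ptprc UMI, and held 261, 715 and 1229 barcodes of library 1 and 1031, 2017 and 2208 of library 2. From low to high pigment, Nr4a1 was at 40.6, 27.4 and 20.2 CPM in library 1 and at 39.1, 28.3 and 20.0 CPM in library 2. Nr4a2 was at 40.3, 24.7 and 14.1 CPM in library 1 and at 33.9, 13.5 and 6.87 CPM in library 2. Nr4a3 ran the other way, at 24.9, 33.5 and 35.7 CPM and at 21.3, 26.1 and 28.3 CPM. The intervals of the lowest and highest range were apart for each member in both libraries. The middle and highest range lie within the melanoma class, and between them the Nr4a3 intervals overlapped in both libraries. They were 30.4 to 36.9 and 33.3 to 38.3 CPM in library 1, and 24.2 to 28.1 and 26.2 to 30.4 CPM in library 2. Those of Nr4a1 and Nr4a2 were apart there. Ptprc, the CD45 gene, was at 4.45, 2.94 and 2.61 CPM and at 3.23, 3.29 and 2.72 CPM, and Il1b at 19.0, 13.5 and 17.3 CPM and at 14.9, 10.8 and 10.2 CPM. The limit of 1 Ptprc UMI holds Ptprc low by construction. Il1b of library 2 went the way of Nr4a1 and Nr4a2, with intervals of 12.7 to 17.3 in the lowest and 8.98 to 11.5 CPM in the highest range, and its part in the levels was not tested. Median UMIs were 13605, 17966 and 18286 in library 1 and 10876, 12599 and 11236.5 in library 2, and the part of depth in these levels was not tested.

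The libraries were set side by side within each class. Nr4a2 in monocytes was 0.46 times (0.35 to 0.61) in library 1 the level of library 2, and 1.22% of the 4196 genes measured were at least 2 times higher in library 2 there, against 2.72% in library 1. Nr4a1 in monocytes was 1.30 times (1.02 to 1.67) and so lay on the other side of 1. In macrophages Nr4a1 was 1.80 times (1.28 to 2.57), Nr4a2 0.88 times (0.62 to 1.26) and Nr4a3 2.81 times (1.07 to 8.66, 18 and 6 UMIs). None of the macrophage members with enough UMIs reached 2, which 2.17% of 6921 genes did in library 1 and 1.23% in library 2. In CD8 T barcodes the intervals of all 3 members held 1, with Nr4a2 at 0.82 (0.62 to 1.08). Nr4a2, the 1 member with enough UMIs there, did not reach 2, against 3.55% and 1.41% of the 2760 genes. In melanoma barcodes Nr4a1 was at 0.94 (0.86 to 1.03), Nr4a2 at 1.74 (1.55 to 1.96) and Nr4a3 at 1.29 (1.19 to 1.39). None of them reached 2, which 0.406% of 12060 genes did in library 1 and 1.62% in library 2. No member had enough UMIs to be counted in neutrophil barcodes, where 21.5% of genes passed in library 1 and 43.9% in library 2, or in dendritic barcodes, where 17.5% and 16.3% passed.

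Immediate early genes were also set side by side between the libraries. Of 15 measured in monocytes, 4 were at least 2 times higher in library 1, beside 2.72% of all genes, and none in library 2, with a median log2 ratio of 0.53 against 0.06 over all genes. In macrophages 7 of 15 were higher in library 1, beside 2.17% of all genes, and none in library 2, with a median of 0.82 against 0.00. In neutrophil barcodes 8 of 13 were higher in library 1, beside 21.5% of all genes, and none in library 2. In dendritic barcodes 4 of 7 were higher in library 1, beside 17.5% of all genes, and 1 of 7 in library 2, beside 16.3%. In CD8 T barcodes 0 of 10 and in melanoma barcodes 0 of 14 passed in either direction, with medians of -0.03 and 0.34. Egr1 was at 245 and 63.6 CPM in monocytes and at 576 and 64.8 CPM in macrophages. Nr4a2 in monocytes went against this list, being lower in library 1. Tissue digestion and sorting, which can induce such genes, were part of both preparations, and their part in these levels was not tested.

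**Figure D5:**
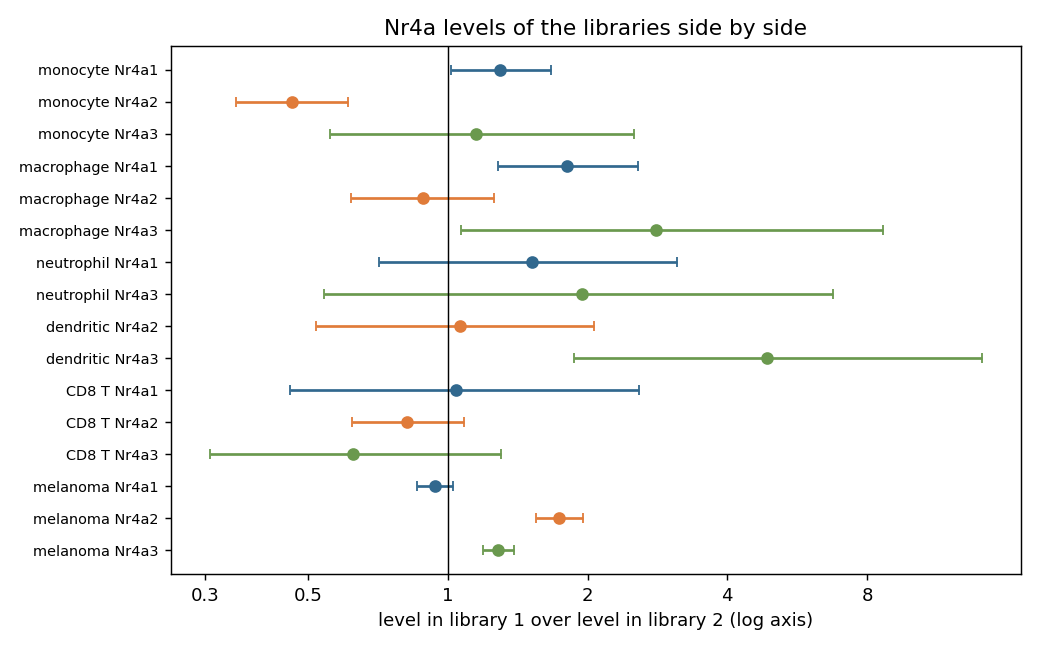
Ratio of the level in library 1 over that in library 2 (x axis, log scale) for each member with at least 5 UMIs in both libraries of a class, with exact 95% intervals and a line at 1. Nr4a2 in monocytes lies at 0.46 and Nr4a2 in melanoma barcodes at 1.74, on different sides of the line.

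Across the 8 classes in 2 libraries (16 points of log2 of CPM plus 10), the members were set beside each other. Pearson's r was 0.23 for Nr4a1 with Nr4a2, -0.01 for Nr4a1 with Nr4a3 and 0.56 for Nr4a2 with Nr4a3. Over the 11 points with at least 50 barcodes these were -0.02, -0.10 and 0.22. Among 11389 genes, those with a pattern most like Nr4a1 were Arl5b (0.93), Zswim4 (0.93), Kdm7a (0.92), Mapkapk2 (0.91) and Daxx (0.91). Those most like Nr4a2 were Sik1 (0.85), a salt-inducible kinase induced by cyclic AMP, Ncoa2 (0.85), a nuclear receptor coactivator, Prpf18 (0.84), Gpbp1l1 (0.83) and Gpr132 (0.83). Those most like Nr4a3 were Map3k14 (0.87), the NF-kB inducing kinase, Ring1 (0.86), Fbrsl1 (0.86), Tubb2b (0.84) and Slc25a20 (0.83). The points of a library share its depth and its melanoma RNA, and the thin classes weigh as much as the deep ones. Over those 11 points, none of the 5 genes stayed in the list of Nr4a1 or of Nr4a3, and only Prpf18 stayed in that of Nr4a2.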

How the data were processed

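Droplet 3′ single-cell RNA sequencing was made of CD45+ cells of 2 samples, aimed at 10000 reads per cell. The authors deposited raw UMI counts for 18252 barcodes in a single matrix, made with Cell Ranger on mm10 (per the submitters' processing notes; the file header gives software version 3.0.2). The members and gene lists were chosen with earlier results of these data known.

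Barcodes needed 500 UMIs, 200 genes and no more than 10% of mitochondrial UMIs, and copies of deeper barcodes of the other library were removed, which left 5198 and 7999. An immune class needed at least 2 UMIs from at least 2 of its markers and 2 times more than any other class. CD8 T barcodes also needed Cd8a or Cd8b1 without Cd4 and Foxp3, and regulatory T barcodes Foxp3 or 2 of their markers, a rule loosened after few barcodes were seen in library 2. A melanoma barcode needed a pigment UMI share of at least 50% of its library's 90th percentile and at most 1 Ptprc UMI, and an immune barcode under 25%. No doublet caller was run; 141 and 83 barcodes with markers of 2 immune classes were left out, and 892 and 951 stayed unassigned. Counts over all genes omit 35 symbols that name several genes. Named genes are the members, the 5 most like each by Pearson's r, and for each list the 3 highest and 3 lowest ratios on the same side of 1 in both libraries; other list genes were named after their values were seen. The result of 1 list between monocytes and macrophages is not reported here. Log2 ratios of lists used a pseudocount of 0.5 UMIs. Ratios and their intervals were tested on simulated data. Alternatives were other filters, gates, scalings, thinning depths and thresholds, and classes by nearest summed profile (multinomial likelihood without Nr4a genes). Python 3.11.15, numpy 2.4.6, scipy 1.17.1, pandas 2.3.3 and matplotlib 3.10.9 were used.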

Additional observations from a re-analysis of the deposited data

Results flagged for a closer look

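Ratios of library 1 over library 2 differed between classes with intervals apart from 1 for 2 members, and the differences between classes were not tested. Nr4a2 was at 0.463 in monocyte, 0.0909 in neutrophil (1 and 25 UMIs) and 1.74 in melanoma barcodes. Nr4a3 was at 2.81 in macrophage, 4.88 in dendritic (15 and 7 UMIs), 1.29 in melanoma and 0.181 in NK barcodes (6 and 4 UMIs). With classes set by nearest profile, the Nr4a3 ratio of dendritic barcodes was 1.03, on 20 and 16 UMIs.

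Signal was also present outside the 8 classes. T barcodes that were neither CD8 T nor regulatory T had Nr4a1 at 23.1 CPM, Nr4a2 at 28.8 CPM and Nr4a3 at 40.4 CPM in library 1, and Nr4a2 at 169 CPM (12 UMIs) in library 2. B barcodes of library 1 had Nr4a1 at 74.0 CPM (7 UMIs).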

How the results depend on the processing

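No paired analysis was possible because the libraries are not mapped to genotypes and each genotype is 1 sample. The Ccr7, Ace or Treml4 and pigment splits, the depth of 5000 UMIs and the nearest profile for lists were chosen after seeing the data. For the main results, 130 values under alternatives stayed within their error, 26 moved and none changed side. These were levels in monocyte, CD8 T and melanoma barcodes, monocyte over macrophage ratios, some library ratios and shares, and list counts. Other ratios did change side with classes by nearest profile. In library 2, Nr4a2 of CD8 T over NK went from 1.83 to 0.93 and Nr4a3 of neutrophils over monocytes from 1.31 to 0.45. The intervals of both held 1 in either setting. With the stricter marker gate, Nr4a2 in monocytes over macrophages of library 2 was 9.23. With classes by nearest profile it was 4.33 in library 1, Nr4a2 in CD8 T barcodes of library 2 was 205 CPM, Nr4a2 in melanoma barcodes of library 1 over library 2 was 1.33 and Nr4a3 in melanoma barcodes of library 2 was 25.6 CPM. As a mean over cells, Nr4a2 in CD8 T barcodes of library 1 was 157 CPM and Nr4a3 in melanoma barcodes 37.0 and 29.6 CPM. Without mitochondrial and ribosomal genes, Nr4a1 in monocytes was 247 and 196 CPM, Nr4a2 in CD8 T barcodes 320 and 401 CPM and Nr4a3 in melanoma barcodes 46.9 and 37.3 CPM. Thinned to 500 UMIs, monocytes with Nr4a1 were 10.9% and 8.24% and CD8 T barcodes of library 2 with Pdcd1 had Nr4a2 in 13.8%. Without thinning, monocytes of library 1 with Nr4a1 were 29.6% and CD8 T barcodes of library 1 with Pdcd1 had Nr4a2 in 48.6%. Of list genes, 8 were higher in monocytes and 3 in macrophages, against 14 and 6 at 1.5 times and 6 in macrophages from 10 UMIs. Towards CD8 T they were 6, against 13 from 10 UMIs and 11 by nearest profile, and towards NK 1, against 4 from 10 UMIs and 2 at 1.5 times. The shares over all genes given above hold for the main setting only. For the other settings neither the number of genes measured nor such a share is given. Their counts therefore cannot be set against a background, and a change in them can follow the number of genes measured. Among all other levels, shares and ratios and the lists of similar genes, 131 moved and 977 did not; the cause was not tested. Depth limits the regulatory T, NK and dendritic classes, whose levels rest on 0 to 30 UMIs of a member.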

Other observations

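The barcodes that no class took held Nr4a RNA as well. In the 892 and 951 unassigned barcodes Nr4a1 was at 70.8 and 53.8 CPM, Nr4a2 at 120 and 62.1 CPM and Nr4a3 at 37.7 and 19.7 CPM. Barcodes with markers of 2 immune classes had Nr4a1 at 92.8 and 87.9 CPM and Nr4a2 at 95.6 and 141 CPM.

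Single barcodes could hold many UMIs of a member. In melanoma barcodes Nr4a2 was seen in 384 of library 1 and 370 of library 2, and the highest count in 1 barcode was 11 in both libraries. Nr4a2 in CD8 T barcodes reached 10 and 8 UMIs in a barcode.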
